A study of Mus musculus with 6 samples.

Results

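The annexins are a family of 10 genes here, chosen by their symbols (Anxa1 to Anxa8, Anxa10 and Anxa11) from the 45777 genes of the table. Transcripts were counted in cultures of dorsal root ganglion (DRG) neurons, the sensory neurons beside the spinal cord, prepared from wild-type C57BL/6 mice labelled as 8 weeks old and female. The PBS group of 3 samples received the carrier buffer as the negative control, and the ONCM group of 3 samples received 100 ng/ml of recombinant oncomodulin, a parvalbumin-family protein that binds calcium, over 12 hours. The labels call the samples biological replicates without naming separate cultures or animals, so the p-values measure only the spread between these samples, which may be technical. The comparison asked how transcripts differed after oncomodulin. No counts were separated by cell type, and in such bulk samples fewer cells of a type and less RNA per cell cannot be told apart.

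Annexins bind acidic phospholipids such as phosphatidylserine in a calcium-dependent way through a conserved core of repeats, and differ mainly in their amino-terminal tails, where S100 proteins and other partners attach. They are known for roles in membrane repair, exocytosis and endocytosis, for the resolution of inflammation (annexin A1) and for surface plasminogen activation (annexin A2). In sensory neurons, annexin A2 with its partner S100A10 is known for its part in the trafficking of ion channels of nociceptors.

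Library totals ran from 53770820 to 64477014 counts. Over all 20354 genes tested, 23.9% rose and 24.4% fell with ONCM by edgeR's quasi-likelihood test with Benjamini-Hochberg adjustment (adjusted p under 0.05), and the ranges of the groups did not overlap for 55.6%. Xist, the transcript of the inactive X chromosome, had 0.53 ± 0.053 CPM (counts scaled to library size) in the PBS group and 478 ± 55.8 CPM in the ONCM group (SD, n = 3 each), and the Y-linked gene Ddx3y was at 60.5 ± 2.17 and 16.1 ± 0.933 CPM. Low Xist with PBS and Y-linked transcripts in all 6 libraries go against the female label. For every annexin value below, the treatment and this difference in sex-linked transcripts cannot be told apart.

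Of the 10 annexin genes, 8 rose (beside 23.9% of all tested genes), 1 fell (beside 24.4%) and 1 missed the threshold. The rises were concentrated in size on 3 genes. Anxa10, an annexin known mainly from stomach epithelium, rose 98.3-fold from a few counts per library. Anxa8, known from epithelia, rose 4.01-fold at a very low level, and Anxa1, the anti-inflammatory annexin induced by glucocorticoids, rose 3.79-fold. The other changes were under 1.5-fold: Anxa2, Anxa3, Anxa4, Anxa5 and Anxa6 rose, Anxa11 fell, and Anxa7 did not pass. The members' median log2 fold change was 0.37, against 0.00 over all tested genes, and 3 of 10 rose at least 2-fold, against 6.18% of tested genes. Anxa8 and Anxa10 passed the filter on low counts only through the ONCM libraries, and of the 8 genes above that filter in every PBS library 6 rose and 1 fell, with a median of 0.26, and Anxa1 alone rose at least 2-fold.

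**Figure D1:**
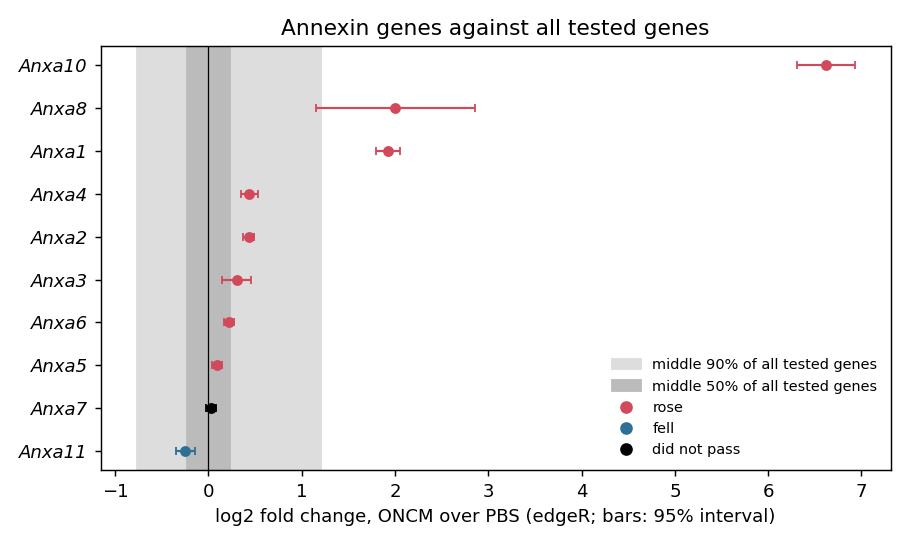
Log2 fold change of each annexin gene, ONCM over PBS (x axis, edgeR), with 95% intervals as bars and the call as the colour. Grey bands hold the middle 50% (-0.23 to 0.24) and the middle 90% (-0.77 to 1.21) of all tested genes; Anxa1, Anxa8 and Anxa10 have estimates beyond the outer band.

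The promoters of Anxa10, Anxa1, Anxa2 and Anxa11 are shown because these are the most raised member, the most raised of the better counted members, the most abundant member and the member that fell. Each run holds the 250 bases before the RefSeq transcript start on the gene's own strand, build GRCm38.p6, and capitals mark matches on either strand to the TATA box (TATAAA), the GC box (GGGCGG) or the AP-1 site (TGANTCA), none of which overlap here.
Anxa10, chr8:62123194-62123443, minus strand: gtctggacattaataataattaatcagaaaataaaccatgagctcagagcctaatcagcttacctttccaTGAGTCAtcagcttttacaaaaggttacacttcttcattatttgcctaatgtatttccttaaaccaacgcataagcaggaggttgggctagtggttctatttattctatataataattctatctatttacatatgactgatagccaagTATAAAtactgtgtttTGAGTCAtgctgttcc
Anxa1, chr19:20390672-20390921, minus strand: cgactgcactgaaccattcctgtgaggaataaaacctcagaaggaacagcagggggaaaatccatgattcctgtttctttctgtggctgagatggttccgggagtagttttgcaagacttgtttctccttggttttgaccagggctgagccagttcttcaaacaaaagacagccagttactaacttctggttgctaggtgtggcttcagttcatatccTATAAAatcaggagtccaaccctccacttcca
Anxa2, chr9:69453433-69453682, plus strand: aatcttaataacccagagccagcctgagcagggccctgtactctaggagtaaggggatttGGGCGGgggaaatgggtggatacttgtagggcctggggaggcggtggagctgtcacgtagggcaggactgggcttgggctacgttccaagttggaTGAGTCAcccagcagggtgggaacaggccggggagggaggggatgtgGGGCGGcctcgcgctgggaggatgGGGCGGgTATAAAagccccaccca
Anxa11, chr14:25841905-25842154, plus strand: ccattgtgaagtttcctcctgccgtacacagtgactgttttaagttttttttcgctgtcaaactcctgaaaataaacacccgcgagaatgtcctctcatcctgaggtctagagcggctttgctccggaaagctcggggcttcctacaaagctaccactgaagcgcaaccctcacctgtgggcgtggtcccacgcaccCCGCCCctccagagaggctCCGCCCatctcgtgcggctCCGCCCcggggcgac

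Anxa10 and Anxa1 each hold a TATA box that begins 32 bases before the start, and Anxa2 has one at 17 bases. The letters of the AP-1 site, the motif bound by Jun and Fos proteins, occur at 180 and 16 bases before the start of Anxa10 and at 95 bases before that of Anxa2. Anxa2 holds 3 GC boxes, at 190, 48 and 24 bases. Anxa11 has no TATA box, 3 GC boxes at 53, 34 and 15 bases, and 17 CG dinucleotides, against 1 for Anxa10, 2 for Anxa1 and 9 for Anxa2. Of 32851 windows of the same length in the RefSeq table, 6.75% held the AP-1 letters, 12.4% the TATA box and 32.7% the GC box. The table matched 8 of the 10 members in 10 windows (all but Anxa3 and Anxa6), and the AP-1 letters were found in the windows of Anxa10 and Anxa2. The letters of the cyclic AMP element (TGACGTCA), the STAT site (TTCNNNGAA) and an interferon response core (GAAANNGAA), searched on both strands, were in none of these 10 windows. They occurred in 1.55%, 7.02% and 7.13% of all windows. A match is a description of letters and not a measured binding site.

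Levels can be compared between genes only per length, in TPM, which scales counts by transcript length and library size. With PBS, Anxa2 led at 2449 ± 16.1 TPM (SD, n = 3), ahead of Anxa5 at 1322 ± 7.43 TPM, Anxa6 at 601 ± 10.2 TPM and Anxa7 at 352 ± 5.81 TPM. A gap of 7.39-fold separated Anxa7 from Anxa11 at 47.7 ± 1.65 TPM, which was followed by Anxa4, Anxa1 and Anxa3 at 32.9, 21.4 and 16.3 TPM. Anxa10 and Anxa8 were last at 0.229 ± 0.088 and 0.185 ± 0.074 TPM, the only neighbours in the PBS order whose ranges overlapped. With ONCM the leading 4 genes kept their places and the lower ranks were reordered. Anxa1 moved from the seventh place to the fifth at 77.7 ± 1.98 TPM, Anxa11 from the fifth to the seventh at 38.5 ± 2.36 TPM, and Anxa10 passed Anxa3, with 22.1 ± 0.843 against 19.3 ± 1.22 TPM. No neighbours in the ONCM order had overlapping ranges.

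**Figure D2:**
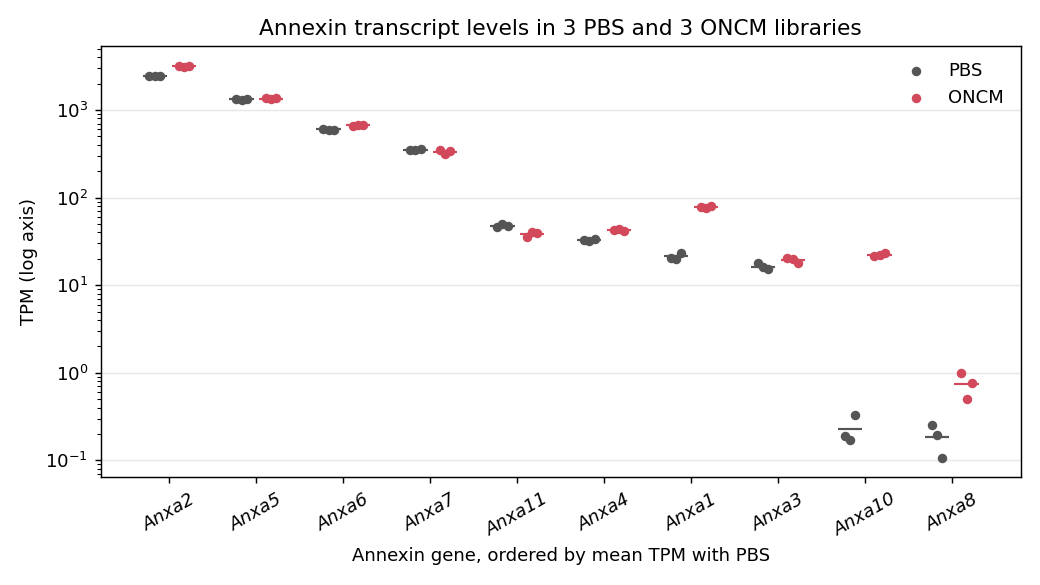
TPM of the 10 annexin genes (log axis) in each of the 3 PBS and 3 ONCM libraries, with points for libraries and lines for group means. Anxa10 goes from 0.229 to 22.1 TPM and Anxa1 from 21.4 to 77.7 TPM, while Anxa5 and Anxa7 stay close to their PBS levels.

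Summed over the 10 genes, annexin transcripts came to 4857, 4810 and 4860 TPM in the PBS libraries and 5710, 5662 and 5790 TPM in the ONCM libraries, a ratio of means of 1.18. Every ONCM sum was above every PBS sum. Most of the difference of 878 TPM lay in Anxa2, whose mean was 716 TPM higher. Anxa2 therefore took 50.6% ± 0.129 of the summed TPM with PBS and 55.3% ± 0.199 with ONCM (SD, n = 3 per group), while the share of Anxa5 was 27.3% ± 0.066 and 23.6% ± 0.098. Anxa10, for all the size of its fold change, made up 0.386% ± 0.012 of the pool with ONCM, and Anxa1 1.36% ± 0.020.

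**Figure D3:**
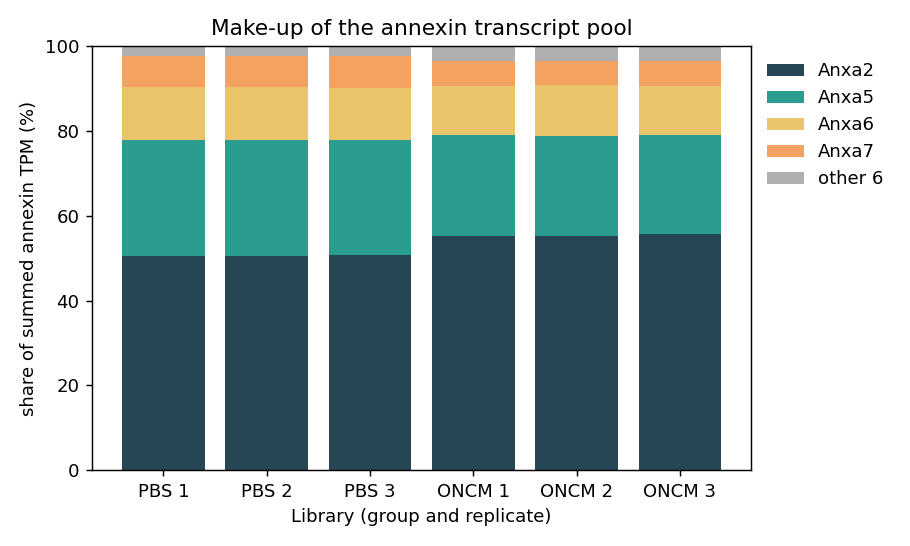
Share of the summed annexin TPM held by Anxa2, Anxa5, Anxa6, Anxa7 and the other 6 genes together (y axis, percent) in each library. The Anxa2 share is between 50.4% and 50.7% in the PBS libraries and between 55.2% and 55.6% in the ONCM libraries.

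Anxa10 (Entrez gene 26359, chromosome 8, 62057042 to 62123193, up to 12 exons) encodes a divergent annexin whose calcium-binding sites are largely lost. It was counted 9, 7 and 14 times in the PBS libraries and 866, 988 and 987 times in the ONCM libraries. In scaled values these are 0.139, 0.125 and 0.242 CPM with PBS and 16.1, 16.5 and 17.7 CPM with ONCM. The groups stood far apart, with low counts on the PBS side that ran from 7 to 14. The log2 fold change was 6.62 (SE 0.15, edgeR adjusted p = 1.23e-16), the 30th highest of the tested genes, with a 95% interval for the fold of 79.4 to 122. The interval rests on the few PBS counts and covers the fitted error only.

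Anxa8 (chromosome 14, 34085979 to 34100571) is an annexin found mostly in stratified epithelia. It had 13, 8 and 5 counts with PBS and 43, 23 and 33 with ONCM. The groups did not overlap, but both stayed under 1 CPM, with means of 0.144 ± 0.057 and 0.591 ± 0.208 CPM (SD, n = 3 each). The log2 fold change was 2.00 (SE 0.41, edgeR adjusted p = 4.68e-04), and at this depth the 95% interval of the fold ran from 2.22 to 7.24.

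Anxa1 (chromosome 19, 20373434 to 20390671) encodes lipocortin 1, a secreted and intracellular mediator that limits leukocyte recruitment. The PBS libraries held 11.2, 11.1 and 13.0 CPM of it and the ONCM libraries 44.5, 42.9 and 46.3 CPM. The lowest ONCM library was more than 3 times the highest PBS library. The log2 fold change was 1.92 (SE 0.06, edgeR adjusted p = 1.29e-14), and 1.98% of tested genes had a higher one.

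Anxa2 (chromosome 9, 69453683 to 69491792) forms a tetramer with S100A10 at the inner plasma membrane and binds plasminogen and its activator at the cell surface. Its values were 1329, 1329 and 1354 CPM in the PBS libraries and 1786, 1761 and 1857 CPM in the ONCM libraries. The groups were clearly apart for so abundant a transcript, and the rise of 1.35-fold had a 95% interval of 1.30 to 1.40 (edgeR adjusted p = 1.57e-10). Anxa4 (chromosome 6, 86736840 to 86793634), an annexin of secretory epithelia, rose by nearly the same factor from a level far lower. It measured 25.4, 25.4 and 26.8 CPM under PBS and 34.8, 35.3 and 35.1 CPM with ONCM, without overlap, for a fold of 1.36 (edgeR adjusted p = 2.09e-07). Anxa2 and Anxa4 had log2 fold changes of 0.43 and 0.44 (SE 0.03 and 0.05).

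Anxa6 (chromosome 11, 54978953 to 55033471, up to 26 exons) encodes the largest annexin, with a duplicated core, and takes part in endocytosis and cholesterol handling. It measured 638, 627 and 627 CPM under PBS and 720, 739 and 747 CPM with ONCM. The groups did not overlap, and the log2 fold change was 0.22 (SE 0.03, edgeR adjusted p = 1.26e-06). Anxa3 (chromosome 5, 96793385 to 96845968), an annexin abundant in neutrophils, measured 11.1, 10.03 and 9.69 CPM under PBS and 13.3, 12.8 and 12.0 CPM with ONCM. Its ranges were close without touching, and the log2 fold change was 0.30 (SE 0.07, edgeR adjusted p = 0.00216).

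Anxa5 (chromosome 3, 36448923 to 36475887), whose protein is the common probe for exposed phosphatidylserine on dying cells, was at 896, 894 and 906 CPM with PBS. With ONCM it was at 955, 938 and 979 CPM, just above the PBS range. The change was 6.54% (95% interval 2.59% to 10.6%, edgeR adjusted p = 0.00699). In TPM it did not pass (log2 difference 0.03, limma adjusted p = 0.271). Anxa7 (chromosome 14, 20455261 to 20480133), known as synexin and for the fusion of secretory granules, measured 356, 352 and 353 CPM under PBS and 365, 354 and 364 CPM with ONCM. These ranges overlapped, and the 95% interval of the change ran from -1.93% to 6.17% (edgeR adjusted p = 0.408). The sign depended on the scale. In TPM the ONCM libraries, at 346, 317 and 337, all lay below the PBS libraries, at 348, 349 and 359, with a log2 difference of -0.08 (limma adjusted p = 0.0902). The scale shifted other genes too: over all tested genes the median shift from the count fit to log2(TPM + 1) was -0.06.

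Anxa11 (chromosome 14, 25842127 to 25886804), which tethers RNA granules to lysosomes for transport along axons, was the only member that fell. The PBS libraries had 43.7, 46.7 and 45.6 CPM and the ONCM libraries 35.2, 39.3 and 39.9 CPM, and every ONCM library lay below the PBS range. The log2 fold change was -0.25 (SE 0.05, edgeR adjusted p = 3.58e-04), a change of -15.9%. GENCODE M21 places the antisense gene Anxa11os over exons of Anxa11, and likewise the antisense gene Gm16144 over Anxa2. The noncoding gene Gm44036 lies over exons of Anxa4 on the opposite strand. Without a stated strand setting, reads of these pairs cannot be told apart. Gm42603 overlaps exons of Anxa3 on the same strand, so reads there cannot be assigned to either gene by strand. None of these overlapping genes had counts of its own under these symbols in the deposited data. In all, 9 of the 10 members had CPM ranges that did not overlap between the groups, beside 55.6% of tested genes. These 9 include Anxa8 and Anxa10, which passed the filter on low counts only through the ONCM libraries. Of the 8 members above that filter in every PBS library, all but Anxa7 had separate ranges.

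A pair of annexin genes lay outside the chosen symbols. Anxa9 averaged 2.55 ± 0.213 CPM under PBS and 2.42 ± 0.189 CPM under ONCM (SD, n = 3 each) and missed the threshold (log2 fold change -0.07, edgeR adjusted p = 0.691). Anxa13 had at most 9 counts in any library and was not tested.

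The genes of most similar pattern were found by the root-mean-square difference of centred log2 CPM over the 6 libraries, among 15267 genes. For Anxa10 they were Npy, Sprr1a and Reg1, at 0.27, 0.28 and 0.31 log2 units. Npy and Sprr1a had log2 fold changes of 6.45 and 6.21, beside 6.62 for Anxa10. Reg1 was at 0 counts in every PBS library and at 2.27 CPM on average with ONCM, so its distance depends on the prior count of 2 used for log2 CPM and no fold change is given. For Anxa11 they were Borcs8, Naaa and Wdr25, at 0.01, 0.02 and 0.03 log2 units, with log2 fold changes of -0.25, -0.27 and -0.24. With 6 libraries in separate groups this measure mostly matches the size of the group difference.

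The counts of rises and falls in the lists that follow stand beside 23.9% and 24.4% of all tested genes. Annexin partners among the S100 proteins moved unequally. Of 6 tested, S100a10, S100a11 and S100a1 rose, S100b fell, and S100a4 and S100a6 did not pass. S100a10, the partner of annexin A2, was at 1199, 1198 and 1250 TPM with PBS and 2352, 2169 and 2159 TPM with ONCM, so its ratio to Anxa2 in TPM went from 0.496 ± 0.010 to 0.704 ± 0.039 (SD, n = 3 per group). Its log2 fold change of 0.93 (SE 0.03) was larger than the 0.43 of Anxa2. S100a11, a partner of annexin A1, had a log2 fold change of 1.87 (SE 0.05), beside 1.92 for Anxa1, and the ratio of S100a11 to Anxa1 in TPM was 9.75 ± 1.10 with PBS and 9.37 ± 0.267 with ONCM. S100a6 did not pass, at 249.6 ± 16.7 and 247.6 ± 13.7 CPM, and its log2 fold change had a 95% interval of -0.12 to 0.09. The median of these 6 log2 fold changes was 0.29, against 0.00 over all tested genes.

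The formyl peptide receptors that bind annexin A1 were barely counted. Fpr2 was at 20, 17 and 24 counts with PBS and 16, 23 and 19 with ONCM, and its log2 fold change had a 95% interval of -0.71 to 0.70. Fpr1 had 0, 0 and 4 counts with PBS and 17, 7 and 6 with ONCM, too few for the filter, and Fpr3 was at 0 in all 6 libraries. Among 8 genes of the glucocorticoid response, which includes Anxa1 as a known target, 3 rose and 2 fell. The phosphatase gene Dusp1 and the RNA decay factor gene Zfp36 rose 1.60-fold and 1.53-fold, and Sgk1 rose by 0.09 on the log2 scale. Tsc22d3 and Fkbp5 fell by 0.40 and 0.43 on the log2 scale (SE 0.04 for both), and Nr3c1, Per1 and Klf9 did not pass. The list's median was 0.05. Of 12 eicosanoid synthesis genes, the pathway that annexin A1 is known to restrain, Ptges, Ptgs2 and Alox5ap rose 1.70-fold, 1.42-fold and 1.98-fold, Alox15 fell, and 8 did not pass, for a median of 0.03. A share of 25.0% raised is close to the 23.9% of all tested genes. The Alox15 call (log2 fold change -0.30, edgeR adjusted p = 0.0375) was lost with DESeq2 (-0.29, adjusted p = 0.181) and in log2(TPM + 1) and log2(TPM + 0.1) (limma adjusted p = 0.182 and 0.234). It was also lost when any library other than ONCM replicate 2 was left out, at edgeR adjusted p-values from 0.0538 to 0.118.

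Surface plasminogen genes, the system that annexin A2 serves, had 6 rises and 2 falls among 10 tested, with a median log2 fold change of 0.27. Plau, which encodes urokinase, rose 2.49-fold, with means of 15.4 ± 0.319 CPM under PBS and 38.3 ± 0.742 CPM under ONCM (SD, n = 3 each). Its receptor gene Plaur rose 1.32-fold, Eno1, an enolase that also serves as a plasminogen receptor, rose 1.36-fold, and the inhibitor gene Serpinb2 rose 3.34-fold to 6.37 ± 0.206 CPM. The tissue activator gene Plat, whose protein annexin A2 binds, did not pass (95% interval of the log2 fold change 0.01 to 0.16, edgeR adjusted p = 0.0695).

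Of 17 plasma membrane repair genes 10 rose (58.8%, beside 23.9% of all tested genes) and 2 fell (11.8%, beside 24.4%), and the median was 0.10. Dysf, the dysferlin gene, rose 1.45-fold to 195.5 ± 5.60 CPM, the endocytic ATPase gene Ehd1 rose 1.39-fold, and the ESCRT gene Chmp4b rose 1.28-fold. Syt7, a calcium sensor of lysosome exocytosis, fell with a log2 fold change of -0.57 (SE 0.04). On the log2(TPM + 1) scale 5 of the 17 rose, and without PBS replicate 2 the count was 6. Flipping and scrambling genes, which set where phosphatidylserine lies, had 5 rises and 4 falls among 12 and a median of 0.02. The scramblase gene Ano6 rose 1.40-fold and Plscr3, of the phospholipid scramblase family, 1.42-fold, whereas the flippase genes Atp11a and Atp8a1 fell by 0.47 and 0.44 on the log2 scale (SE 0.03 for both). On the TPM scale 3 of these genes rose. Of 10 tested genes of phosphatidylserine recognition 5 rose and 4 fell, with a median of 0.33. The scavenger receptor gene Stab1 and the bridging protein genes Pros1 and Mfge8 rose 2.36-fold, 1.64-fold and 1.57-fold, and the receptor tyrosine kinase gene Axl rose 1.18-fold. The 4 that fell were Gas6, Mertk, Tyro3 and Adgrb1, with log2 fold changes of -0.16, -0.19, -0.21 and -0.32. Partners of annexins A7 and A11 differed little. Among 6 tested, Caprin1, Lamp1 and G3bp1 rose by at most 0.18 on the log2 scale and Sri, encoding sorcin, fell (-0.13, SE 0.04), while Pdcd6 did not pass (0.08, edgeR adjusted p = 0.0936) but passed narrowly with at least 1 CPM required in 3 libraries (0.09, adjusted p = 0.0499). The Sri call was lost without PBS replicate 3 (-0.09, edgeR adjusted p = 0.0737). In log2(TPM + 1), 1 gene of this list rose, and Caprin1 and G3bp1 no longer passed (limma adjusted p = 0.121 and 0.0862).

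**Figure D4:**
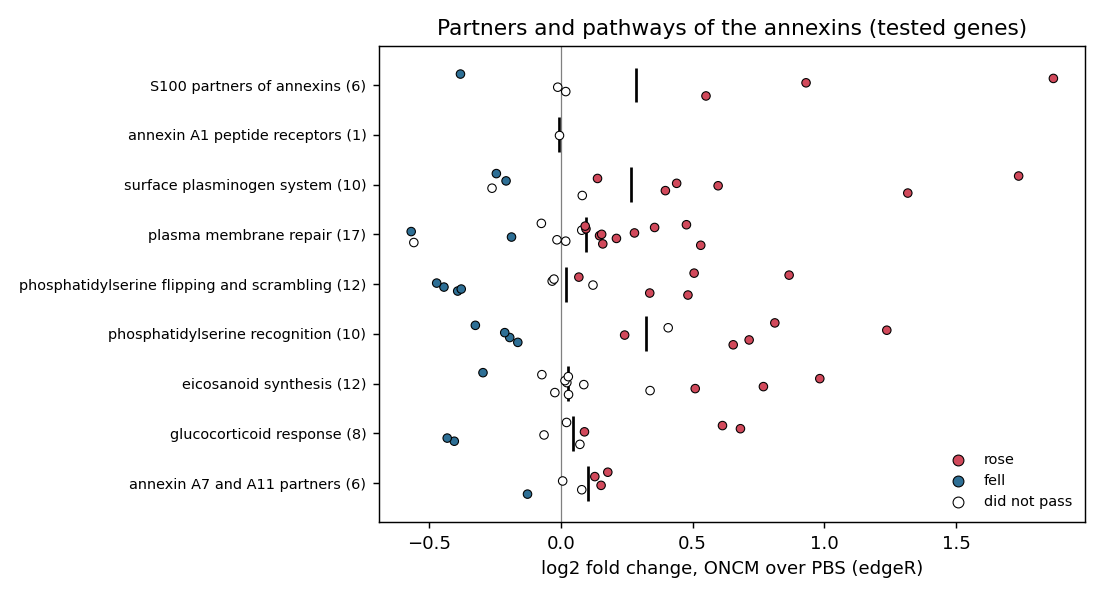
Log2 fold change (x axis, edgeR, ONCM over PBS) of each tested gene in 9 lists of annexin partners and pathways, with the number tested in brackets, the call as the fill and the list median as a vertical line. List medians lie between -0.01 and 0.33, and the 2 largest rises shown are S100a11 at 1.87 and Serpinb2 at 1.74.

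Beside the annexin genes, markers of several cell types differed between the groups. Neuron markers were present in every library (summed level 11940 to 12154 CPM with PBS and 13558 to 14263 CPM with ONCM), with 3 of 8 raised and 4 lowered and a list median log2 fold change of -0.25. The higher sum lay in the raised genes Tubb3, Stmn2 and Uchl1. All 8 macrophage markers rose, from a sum of 33.6 to 36.5 CPM to one of 107 to 112 CPM. Among neutrophil markers 1 of 3 tested rose (Ly6g), with a sum of 1.28 to 1.42 CPM against 2.62 to 2.72 CPM, and the granule genes Mpo and Elane were at 0 in every library. Ly6g alone, at a mean of 0.136 CPM with PBS and 1.88 CPM with ONCM, carried the higher sum. S100a8 and S100a9 did not pass, with means of 0.487 and 0.743 CPM under PBS and 0.295 and 0.483 CPM under ONCM and lower counts in every ONCM library, and the list median was -0.62. Epithelial markers split, with Krt8 raised and Cdh1 lowered of 2 tested, and keratins were near 0: Krt8 had at most 22, Krt18 at most 3, Krt5 at most 4 and Krt14 at most 13 counts in any library, while Cdh1, also expressed outside epithelia, made up nearly the whole epithelial sum of 102 to 108 CPM with PBS and 78.2 to 80.0 CPM with ONCM. Fibroblast markers summed to 211 to 218 CPM and 345 to 356 CPM (4 of 5 rose), satellite glia markers to 493 to 506 and 671 to 678 CPM (2 of 5), Schwann cell markers to 2689 to 2726 and 2960 to 3111 CPM (3 of 6), and endothelial markers to 108 to 116 and 135 to 140 CPM (4 of 5). Most of the satellite glia difference lay in Glul, at 262 and 415 CPM on average, while Fabp7, Kcnj10 and Cdh19 did not pass and the list median was 0.03. Mural cell and red blood cell markers were lower, at 143 to 144 against 103 to 105 CPM (3 of 5 fell) and 82.9 to 89.9 against 58.1 to 61.6 CPM (4 of 5 fell), and T cell markers stayed at or under 1.30 CPM in sum, with 1 of 2 tested raised. The part of these cell types in the annexin differences was not tested.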

How the data were processed

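The authors deposited 1 table with raw read counts, FPKM and TPM per gene for 6 libraries, per the file headers. The counts were tested as the authors deposited them, the deposited TPM values were used for levels between genes and as an alternative scale, and the deposited FPKM values were not used here. Columns were matched to samples by the codes the labels share with the headers. The build is mm10, per the submitters' processing notes; the aligner, counter, annotation release and strand setting were not given in the sources used here. Coordinates and promoters come from RefSeq tables of GRCm38.p6, the same assembly, matched by gene number for 45679 of 45777 genes, and overlaps from GENCODE M21.

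In R 4.3.3, edgeR 4.0.16 was run on the whole table (filterByExpr, TMM, robust quasi-likelihood F-test, no covariate), with Benjamini-Hochberg adjustment over 20354 genes and a threshold of 0.05. Only passing genes are said to rise or fall. Standard errors were derived from the fold change and its F statistic, and CPM used TMM factors. Alternatives used DESeq2 1.42.0 and limma 3.58.1. The fit was tested on simulated counts. Replicates differed beyond sampling noise (chi-square per degree of freedom 2.76 to 7.09), which does not show that they were separate cultures. The value was 3.10 for ONCM replicates 1 and 2, and 7.09 and 6.60 for their pairs with ONCM replicate 3. All 6 libraries were kept. Intervals of fold changes come from the fitted model and include the spread between libraries. A floor of 3 counts equals 0.0464 to 0.0558 CPM and covers counting error only, since reads without molecular identifiers are not separate molecules.

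All 10 members are named. From each list of partners or pathways up to 4 tested genes with the smallest p are named, with direct partners of annexins. Others (Anxa13, S100a4, Fpr3, Plat, Sgk1, Nr3c1, Per1, Klf9, Gas6, Mertk, Tyro3, Adgrb1 and single markers) were chosen after their values were seen. Members and lists were chosen with earlier results of these data known.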

Additional observations from a re-analysis of the deposited data

How the results depend on the processing

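In 15 alternative fits (other scalings, filters, DESeq2, log2 TPM, without chromosomes X, Y and MT, replicate block, each library left out), 8 of the 10 annexin genes kept their direction and call wherever tested. The exceptions were on the log2 TPM scale with pseudocounts of 1 and 0.1: Anxa5 lost its call (0.03 with both, limma adjusted p = 0.271 and 0.268) and Anxa7 changed sign (-0.079 with both, adjusted p = 0.0902 and 0.0884), so 7 members rose. With at least 1 CPM required in 3 libraries, Anxa8 was not tested and 7 of 9 rose. Fold changes of Anxa10 ran from 4.23 to 6.95 and of Anxa8 from 0.56 to 2.33 on the log2 scale, lowest with log2(TPM + 1), whose pseudocount shrinks low genes. Log2 fold changes over all tested genes shifted from the main fit by a median of -0.060 and -0.062 with these 2 pseudocounts. The calls over all genes were 49.5% rises on counts and 39.2% on log2(TPM + 1), and their number ran from 8207 with DESeq2 to 9838. The summed annexin ratio was 1.21 in CPM, against 1.18 in TPM.

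The labels number replicates 1 to 3 in both groups without saying that numbers pair cultures. Deviations of same-numbered samples correlated at 0.0012, 0.032 and 0.025 over genes, and PBS replicate 1 correlated best with ONCM replicate 2 (0.14). With the replicate block 9597 genes changed, against 9829 without it, and 8 members rose and 1 fell; Alox15 missed the threshold (-0.30, edgeR adjusted p = 0.0549).

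Of 36 other genes named by smallest p or as direct partners, 29 kept direction and call in every alternative where tested. Fpr2, with few counts throughout, changed sign with RLE scaling (0.00086) and ran from -0.10 to 0.15 with a library left out. S100a6 ran from -0.070 to 0.023 with a library left out. Neither passed in any fit. The causes were not tested. Depth limits Anxa8 and the PBS values of Anxa10, at 5 to 14 counts.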

Other observations

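The nearest tested genes on each side of the members were looked up by position, after other values of these data had been seen. Ddx60, an interferon-stimulated helicase gene 19.3 kb from Anxa10, rose from 15.2 ± 1.21 to 31.8 ± 3.29 CPM (SD, n = 3 per group; log2 fold change 1.06, SE 0.07, edgeR adjusted p = 3.54e-09), far less than Anxa10. Spock3, a proteoglycan gene 828 kb away on the other side of Anxa10, fell from 76.1 ± 2.95 to 42.3 ± 1.08 CPM (-0.85, SE 0.04). The noncoding gene 1500015L24Rik, 14.6 kb from Anxa1 by RefSeq, had 0, 0 and 3 counts with PBS and 20, 13 and 25 with ONCM. GENCODE M21 instead places it across Anxa1 on the opposite strand, without overlapping exons. Gm30083, 69.1 kb from Anxa8, rose from 0.095 ± 0.042 to 0.589 ± 0.109 CPM, a level as low as that of Anxa8. The gene 1810062G17Rik, 49 bases from Anxa5, rose from 1.39 ± 0.212 to 2.35 ± 0.050 CPM (0.75, SE 0.15), while Anxa5 itself changed by 0.09. Tnip1, an inhibitor of NF-kB signalling 16.0 kb from Anxa6, rose by 0.42 (SE 0.04). Qrfpr, 227 kb from Anxa5, rose from 0.408 ± 0.159 to 1.205 ± 0.102 CPM (1.54, SE 0.27). Bmp2k and Fras1, 152 kb and 8.65 kb from Anxa3 on either side, rose and fell (0.28 and -0.27). Zcchc24, 73.1 kb from Anxa11, rose (0.13). The neighbours of Anxa2, Anxa4 and Anxa7 did not pass. In all, 8 of the 20 neighbours rose and 2 fell, beside 23.9% and 24.4% of all tested genes.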
